A study of Saccharomyces cerevisiae with 8 samples.

Results

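The transcriptome of *Saccharomyces cerevisiae* lacking *AZF1* was compared with that of its parent during anaerobic growth on xylose, using RNA-seq. The 4 libraries were chosen by their labels, 2 of *azf1Δ* and 2 of WT, out of 8 libraries of the series. The other 4 hold *AZF1* MoBY cells, with extra *AZF1* on a plasmid, and MoBY control cells with the empty plasmid, both grown with 200 mg/L G418. Both strains compared here carry no plasmid and were grown without G418 on 2% xylose, without oxygen, to the exponential phase.

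The labels call the parent Y128, an evolved xylose-fermenting strain, while the study's methods name its marker-rescued derivative Y133. Both strains therefore share an integrated xylose isomerase and xylulokinase cassette and the evolved mutations in *ISU1*, *HOG1*, *GRE3* and *IRA2*. In *azf1Δ* the *AZF1* locus was replaced with the *KanMX* resistance cassette, so the strains differ by that marker too, and each genotype is 1 strain. Duplicate cultures were collected on different days, and p-values measure only the spread between these duplicates.

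Azf1 is a zinc finger transcription factor that binds A-rich promoter sequences. It is known from work in other strains to act on different genes with the carbon source, among them the G1 cyclin gene *CLN3* on glucose and cell wall genes on glycerol. Respiratory genes of yeast are activated by the Hap complex, whose limiting subunit is Hap4, and are normally held low on glucose. Without oxygen the respiratory chain cannot run, although several of its genes are still transcribed.

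Values were given as RPKM, read counts scaled to gene length and to the mapped reads of the library. Implied depth was 6185000 to 7130000 mapped reads per library, and duplicates correlated across 5944 genes at 0.991 in *azf1Δ* and 0.989 in WT, genes not being independent replicates. All changes below are differences of log2(RPKM + 1), *azf1Δ* minus WT, with the standard error (SE), and a gene was called when limma gave a Benjamini-Hochberg adjusted p under 0.05. The fit pooled information on the spread across genes, because 2 libraries a group leave 2 residual degrees of freedom. Of 31 called ORFs without a RefSeq entry, described at the end, 27 had both WT libraries above the other 6 libraries of the series, and calls are also given without those ORFs.

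*AZF1* encodes the deleted factor itself and was at 0.0501 and 0.120 RPKM in *azf1Δ*, against 13.2 and 11.6 RPKM in WT. The *azf1Δ* values equal about 0.980 and 2.04 reads. With both set to a floor of 3 reads per library, the deletion strain held 75.2-fold less of the transcript. That floor is a fixed choice and not a limit on counting error. The marker *kanR* was at 11.8 and 8.17 RPKM in *azf1Δ*, against 0.200 and 0.351 RPKM in WT, a change of 3.09 ± 0.24 (SE, limma, adjusted p = 0.0097). The xylose isomerase gene *CpXylA* was at 9675 and 7913 RPKM in *azf1Δ*, against 10440 and 9675 RPKM in WT, and was not called (limma, adjusted p = 0.489). The xylulokinase gene *PsXyl3* was at 270.6 and 259.6 RPKM in *azf1Δ*, against 298.2 and 302.3 RPKM in WT (limma, adjusted p = 0.274). Transcripts of *ISU1*, *HOG1*, *GRE3* and *IRA2* were present in all 4 libraries, and none was called, with log2 changes from 0.06 for *HOG1* to 0.41 for *IRA2*.

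Few transcripts were called between *azf1Δ* and WT, with 2 libraries a group. The calls are not a count of all transcripts that differ, and 1048 genes had an unadjusted p under 0.05 in limma. Of 5944 genes tested of 6328 in the table, 103 were called. Of these, 56 were higher in *azf1Δ* (0.942% of genes tested) and 47 were lower (0.791%). The higher genes are *kanR* and 55 genes with an entry in the RefSeq annotation, led by a hexose transporter, a gluconeogenic enzyme and subunits of the respiratory chain. The lower genes are 16 with a RefSeq entry, *AZF1* among them, led by a fatty acid activating enzyme and the glycerol phosphatases, and 31 open reading frames (ORFs) without an entry, which are set apart below. None of the 71 called genes with an entry overlaps an annotated gene on the other strand. The libraries of the 2 groups did not overlap for any called gene, so such a remark on a called gene below adds no support. Over all genes tested, both *azf1Δ* libraries lay above both WT libraries in 30.7% and below in 17.6%.

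The calls rest on pooling the spread. limma without the variance trend called 5 genes, limma without the filter on low values called 5, and leaving out any 1 of the 4 libraries left 0 calls by limma (540 to 813 genes at an unadjusted p under 0.05, against 1048 with all 4). After median-ratio rescaling 66 genes were called, 26 higher and 40 lower, and the median change of all genes went to -0.00, against 0.04 before. The direction of each of the 71 genes was the same in every one of these fits that tested it, and the log2 changes of 60 called genes stayed within 0.783 to 1.22 times their values when 1 library was left out. As the groups did not overlap for any called gene, leaving out 1 library could not reverse a direction. The filter and the variance trend leave the change itself unaltered, so the shared direction adds no support to the calls.

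In sugar transport and central carbon metabolism 2 transcripts stood out. *HXT4*, which encodes a high-affinity hexose transporter, was at 70.5 and 59.7 RPKM in *azf1Δ*, against 19.0 and 19.7 RPKM in WT. The groups did not overlap, and *HXT4* had the largest rise after *kanR*, 1.69 ± 0.11 (SE, limma, adjusted p = 0.0054). In MoBY control, with intact *AZF1*, *HXT4* was at 148.1 and 131.6 RPKM, and both WT libraries were below every other library of the series. The low-affinity transporter gene *HXT3* was at 28.1 and 22.6 RPKM in *azf1Δ*, against 15.6 and 14.2 RPKM in WT, and missed the threshold (limma, adjusted p = 0.0549). The most abundant transporter transcripts differed little. *HXT6* was at 3692 and 3666 RPKM in *azf1Δ*, against 3902 and 3517 RPKM in WT, and *HXT7* and *HXT2* had changes of -0.08 and 0.04. *HXT6* and *HXT7* are nearly identical, as *HXT4* and *HXT3* are similar, so how reads were divided within the family is uncertain. Of the 5 hexose transporter genes tested, *HXT4* was the single call.

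*PCK1*, which encodes phosphoenolpyruvate carboxykinase, the committed enzyme of gluconeogenesis, was at 27.1 and 25.5 RPKM in *azf1Δ*, against 9.45 and 10.4 RPKM in WT. Both *azf1Δ* libraries were above both WT libraries, with a change of 1.32 ± 0.11 (SE, limma, adjusted p = 0.0125). Among 17 genes of gluconeogenesis and the glyoxylate cycle, 2 were called higher, *PCK1* and the carnitine acetyltransferase gene *CAT2* (0.56), and none lower, around a median of 0.12. *FBP1*, the fructose-1,6-bisphosphatase gene of the same pathway, stayed low, at 2.28 and 2.62 RPKM in *azf1Δ* and 1.38 and 2.33 RPKM in WT, and *MDH2* had a change of 0.28 (limma, adjusted p = 0.349). The glyoxylate cycle genes *ICL1* and *MLS1* had changes of 0.11 and 0.03.

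Glycolysis had no call in either direction among 21 genes, with 7 at an unadjusted p under 0.05 in limma and a median of -0.12. In 14 of the 21 both *azf1Δ* libraries lay below both WT libraries, against 17.6% of all genes tested, and in 1 both lay above, against 30.7%. The glyceraldehyde-3-phosphate dehydrogenase gene *TDH1* had the lowest value, at 3281 and 3591 RPKM in *azf1Δ*, against 4482 and 4153 RPKM in WT (change -0.33, limma, adjusted p = 0.178). *HXK1*, which encodes a hexokinase, had the highest, 0.20. The pentose phosphate pathway, through which xylose enters metabolism, likewise had 0 calls by limma among 12 genes (3 at an unadjusted p under 0.05) and a median of -0.14. *TAL1*, the transaldolase gene that also belongs to the engineered cassette, was at 396.2 and 404.5 RPKM in *azf1Δ*, against 512.0 and 519.1 RPKM in WT (change -0.36, limma, adjusted p = 0.0651).

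Glycerol synthesis held the clearest falls in carbon metabolism. *GPP1* and *GPP2* encode the glycerol-3-phosphate phosphatases that complete glycerol synthesis, the usual route for discarding surplus NADH without oxygen. *GPP1* was at 79.3 and 68.6 RPKM in *azf1Δ*, against 138.1 and 141.0 RPKM in WT, a change of -0.91 ± 0.09 (SE, limma, adjusted p = 0.0182). *GPP2* was at 45.6 and 47.2 RPKM in *azf1Δ*, against 74.5 and 91.8 RPKM in WT (change -0.82 ± 0.11, SE, limma, adjusted p = 0.0305). The groups did not overlap for either gene, though the paralogs are similar in sequence and may have shared reads. Both genes were below WT in the plasmid strains too. *GPP1* was at 101.1 and 97.0 RPKM in *AZF1* MoBY and 87.4 and 109.1 RPKM in MoBY control. *GPP2* was at 64.5 and 66.7 RPKM in *AZF1* MoBY and 72.0 and 70.5 RPKM in MoBY control. The dehydrogenase gene of the preceding step, *GPD1*, was at 256.0 and 257.8 RPKM in *azf1Δ*, against 330.8 and 328.6 RPKM in WT, and missed the threshold (limma, adjusted p = 0.0648). Of 10 glycerol genes, 2 were called lower and none higher, around a median of -0.30 that was -0.18 without WT replicate B. The glycerol-consuming gene *GUT2* had the highest value of the list, 0.22.

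**Figure D1:**
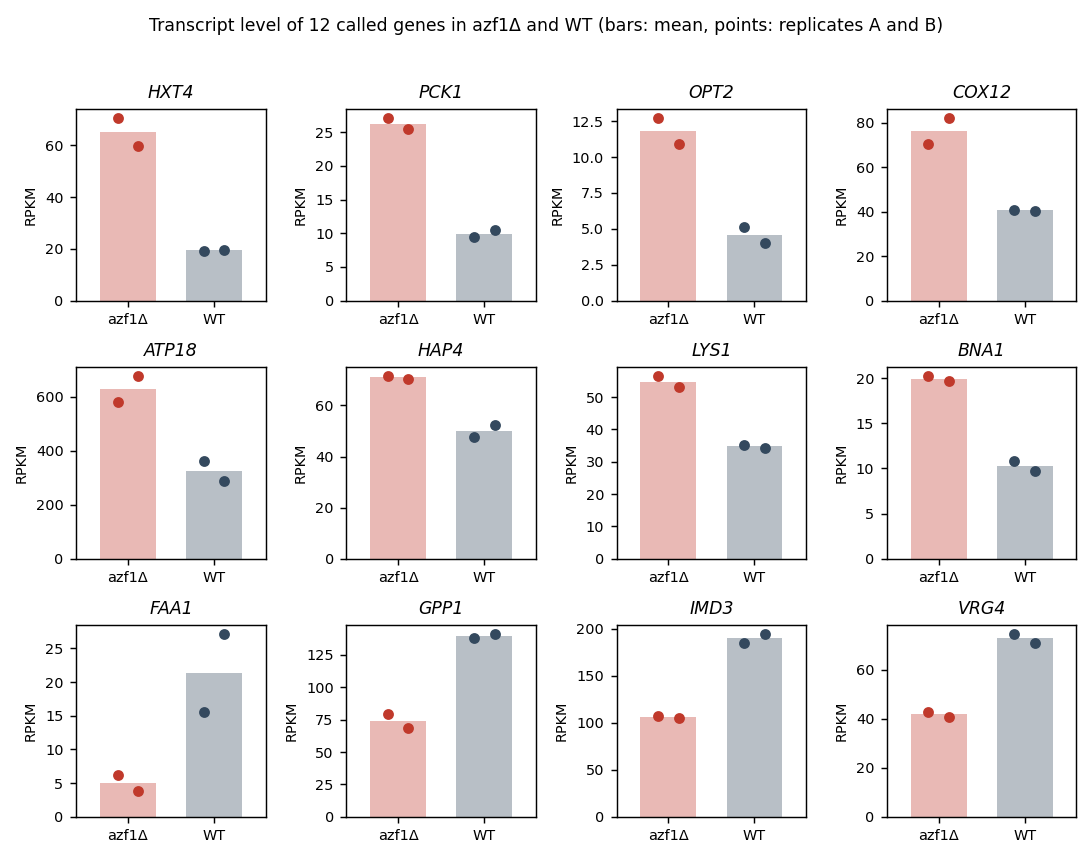
Transcript level in RPKM (vertical axes, from 0) of 12 called genes in *azf1Δ* (left) and WT (right), with bars for the mean and points for replicates A and B. The 2 strains do not overlap for any gene shown, as for every called gene, and *FAA1* has the widest spread in WT, at 15.6 and 27.1 RPKM.

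Respiration was the area with most called genes. Of 39 nuclear genes for subunits of the respiratory chain and ATP synthase, 13 were called higher and none lower, and the median change was 0.40, against 0.04 over all genes. In 33 of the 39 both *azf1Δ* libraries lay above both WT libraries, against 30.7% of all genes tested. The 13 calls became 6 after median-ratio rescaling and 3 when all 8 libraries shared one estimate of the spread, and the median after rescaling was 0.34.

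Complexes II to V were each represented among the calls. Succinate dehydrogenase, which feeds electrons from succinate into the chain, had 2 of 4, *SDH2* and *SDH4*. *SDH2* was at 385.3 and 407.3 RPKM in *azf1Δ*, against 278.2 and 286.0 RPKM in WT, a change of 0.49. The cytochrome bc1 complex had 4 of 9, *QCR10*, *CYT1* (cytochrome c1), *QCR2* and *RIP1* (the Rieske iron-sulfur protein), with changes from 0.48 to 0.65. *CYT1* was at 83.3 and 76.6 RPKM in *azf1Δ*, against 52.0 and 49.2 RPKM in WT.

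Cytochrome c oxidase, which passes electrons to oxygen, had 4 of 10. *COX12* was at 70.5 and 82.1 RPKM in *azf1Δ*, against 40.8 and 40.5 RPKM in WT, a change of 0.89 ± 0.10 (SE, limma, adjusted p = 0.0212). The small subunit genes *COX7*, *COX8* and *COX9* rose by 0.84, 0.81 and 0.49. The subunit 5 isoforms differed in value. *COX5A*, the form used with oxygen, had a change of 0.56, and *COX5B*, the hypoxic form, of -0.09, and neither was called. Cytochrome c followed the same order, with 0.90 for *CYC1*, the major form, and -0.07 for the hypoxic form *CYC7*. *CYC1* was at 12.7 and 12.2 RPKM in *azf1Δ*, against 4.89 and 7.84 RPKM in WT (limma, adjusted p = 0.0977).

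ATP synthase had 3 calls of 17 genes on its list, *ATP18*, *ATP19* and *ATP4*. *ATP18*, a small membrane-sector subunit, was at 580.0 and 675.6 RPKM in *azf1Δ*, against 362.0 and 286.0 RPKM in WT, a change of 0.96 ± 0.13 (SE, limma, adjusted p = 0.0305). The catalytic core genes moved less, and *ATP1* and *ATP2* were not called, with *ATP2* at 1097 and 1090 RPKM in *azf1Δ*, against 885.3 and 855.1 RPKM in WT. *YJR120W*, which lies next to *ATP2*, was called higher by 0.77, and how reads were divided between neighbors was not stated.

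The mitochondrial genome followed the nuclear genes. Of its 8 protein genes, 4 were called higher, *OLI1*, *ATP6*, *COX1* and *ATP8*, and the median was 0.60. *OLI1*, ATP synthase subunit 9, was at 357.1 and 442.6 RPKM in *azf1Δ*, against 192.7 and 235.6 RPKM in WT. *COX1*, the catalytic subunit of the oxidase, was at 42.8 and 42.5 RPKM in *azf1Δ*, against 26.5 and 27.5 RPKM in WT. *VAR1*, the one member that encodes a ribosomal protein, had a change of 0.06. The number of mitochondrial genomes per cell and transcript per genome cannot be told apart in these data. Nuclear genes of the mitochondrial ribosome had 0 calls by limma among 69 (17 at an unadjusted p under 0.05) and a median of 0.13, so they sat nearer to the median of all genes than the subunits did. They leaned the same way, as in 36 of the 69 both *azf1Δ* libraries lay above both WT libraries, against 30.7% of all genes tested. In 2 both lay below, against 17.6%.

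The regulator *HAP4* moved with them. It was at 71.5 and 70.5 RPKM in *azf1Δ*, against 47.8 and 52.4 RPKM in WT, a change of 0.50 ± 0.08 (SE, limma, adjusted p = 0.0462). The tricarboxylic acid cycle had 1 call of 13, the isocitrate dehydrogenase gene *IDH1*, at 229.1 and 227.5 RPKM in *azf1Δ*, against 167.7 and 144.0 RPKM in WT. In 11 of the 13 both *azf1Δ* libraries were above both WT libraries, against 30.7% of all genes, and the median was 0.32. *MIR1*, the mitochondrial phosphate carrier, and *ACP1*, the mitochondrial acyl carrier protein, were also called higher, by 0.68 and 0.50. So was *YHB1*, the flavohemoglobin that removes nitric oxide, at 390.7 and 359.5 RPKM in *azf1Δ*, against 254.2 and 257.8 RPKM in WT. Other regulators were not called. *CAT8* and *ADR1*, activators of genes for non-fermentable carbon, had changes of 0.40 and 0.13, and the glucose repressor *MIG1* of 0.20. *MTH1*, which encodes a co-repressor of hexose transporter genes, was at 70.5 and 73.5 RPKM in *azf1Δ*, against 55.7 and 55.3 RPKM in WT (limma, adjusted p = 0.0776). *MIG2* and *MIG3*, further glucose repressors, had changes of 0.77 and -1.41 that missed the threshold (limma, adjusted p = 0.0509 and 0.0719).

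Amino acid biosynthesis held a few calls, in the lysine, arginine and asparagine routes. Over all routes together 5 genes were called higher and none lower, and their median of 0.06 was close to that of all genes. Lysine synthesis had 2 of 8. *LYS1*, saccharopine dehydrogenase of the last step, was at 56.5 and 53.1 RPKM in *azf1Δ*, against 35.3 and 34.3 RPKM in WT (change 0.64 ± 0.08, SE, limma, adjusted p = 0.0288). *LYS9*, the enzyme before it, rose by 0.54, and *LYS20*, a homocitrate synthase of the first step, had 0.52 and missed the threshold (limma, adjusted p = 0.0506). In 7 of the 8 lysine genes both *azf1Δ* libraries were above both WT libraries, against 30.7% of all genes tested.

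In arginine synthesis *ARG1*, argininosuccinate synthetase, was called higher. It was at 498.0 and 455.1 RPKM in *azf1Δ*, against 317.4 and 344.9 RPKM in WT. *YOR302W*, the upstream reading frame that encodes the arginine attenuator peptide of *CPA1*, was at 1053 and 1235 RPKM in *azf1Δ*, against 626.0 and 592.2 RPKM in WT, a change of 0.90 ± 0.10 (SE, limma, adjusted p = 0.0212). *CPA1* itself had a change of 0.05 and was not called. *ASN1*, asparagine synthetase, was at 232.3 and 218.3 RPKM in *azf1Δ*, against 155.4 and 149.1 RPKM in WT. The leucine, isoleucine and valine, histidine, aromatic, serine and sulfur routes had no calls by limma, with 1 or more genes of each at an unadjusted p under 0.05. *GCN4*, the general activator of these routes, was at 1168 and 1113 RPKM in *azf1Δ*, against 989.1 and 935.8 RPKM in WT (change 0.24, limma, adjusted p = 0.204).

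The list of NAD synthesis genes had 2 calls of 12, both higher, against 0.942% of all genes tested, and both in the route from tryptophan. *BNA1*, 3-hydroxyanthranilate dioxygenase, was at 20.3 and 19.7 RPKM in *azf1Δ*, against 10.9 and 9.71 RPKM in WT, a change of 0.90 ± 0.11 (SE, limma, adjusted p = 0.0261). *BNA5*, kynureninase, rose by 0.73. *BNA2* and *BNA4*, further enzymes of the same route, had changes of 0.52 and 0.36 and were not called (limma, adjusted p = 0.0719 and 0.139).

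Transporters changed in both directions. Of 18 amino acid permease genes tested, 3 were called lower and 1 higher, around a median of 0.01. The lower ones were the histidine permease *HIP1*, the tyrosine and branched-chain permease *TAT1* and the branched-chain permease *BAP2*. *HIP1* was at 42.8 and 42.2 RPKM in *azf1Δ*, against 67.2 and 61.0 RPKM in WT. *BAP2* was at 166.6 and 164.3 RPKM in *azf1Δ*, against 237.2 and 221.3 RPKM in WT, and *TAT1*, its neighbor on the chromosome, fell by 0.56. The higher one was *DIP5*, the acidic amino acid permease, at 203.7 and 199.5 RPKM in *azf1Δ*, against 151.2 and 134.4 RPKM in WT. The groups did not overlap for any of the 4, as for every called gene.

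*OPT2*, an oligopeptide transporter family gene, was at 12.7 and 10.9 RPKM in *azf1Δ*, against 5.13 and 4.03 RPKM in WT, a change of 1.20 ± 0.16 (SE, limma, adjusted p = 0.0291). The vacuolar cationic amino acid transporter gene *RTC2* was at 10.5 and 9.99 RPKM in *azf1Δ*, against 4.89 and 5.28 RPKM in WT. Falls included *FCY2*, the purine-cytosine permease, by 0.69, and *PHO90*, a low-affinity phosphate transporter, by 0.57. Limma called 0 of 23 iron and copper genes, of which 7 had an unadjusted p under 0.05, 0 of 7 zinc and manganese genes, of which 3 had, and 0 of 18 drug and sterol transporter genes, of which 1 had.

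The cell wall lists held few calls. Among 17 genes of the cell wall integrity pathway *WSC4*, a plasma membrane sensor family gene, was called, at 46.9 and 56.5 RPKM in *azf1Δ*, against 30.3 and 25.5 RPKM in WT (change 0.87 ± 0.13, SE, limma, adjusted p = 0.0369). The related sensors *MTL1* and *WSC3* had changes of 0.57 and 0.47 and were not called. Of 20 anaerobic mannoprotein genes of the *PAU*, *DAN* and *TIR* families, *DAN4* and *PAU21* were called higher, by 0.75 and 0.71. *PAU12* had the lowest value of these, -0.48, the median was 0.06, and *PAU* genes are so alike that reads could be split among them. Structural mannoproteins had 0 calls by limma among 26 (9 at an unadjusted p under 0.05), with a range from -0.69 for *NCA3* to 0.96 for *AGA1*. *VRG4*, the Golgi GDP-mannose transporter needed for mannoprotein glycosylation, was lower, at 42.8 and 40.8 RPKM in *azf1Δ*, against 74.5 and 71.0 RPKM in WT (change -0.79 ± 0.08, SE, limma, adjusted p = 0.0194). *SVS1*, a cell wall protein gene, rose by 0.61.

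**Figure D2:**
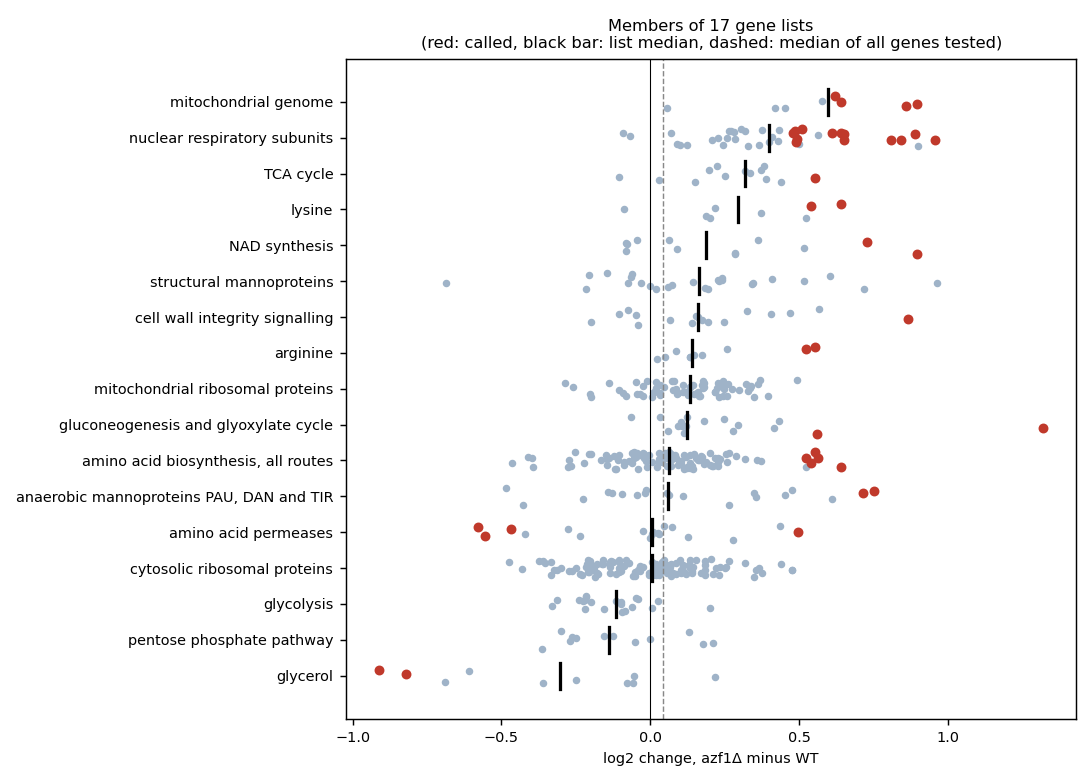
Change in log2(RPKM + 1), *azf1Δ* minus WT (horizontal axis), for each tested member of 17 gene lists, with called genes in red, list medians as black bars and the median of all genes dashed. Medians run from 0.60 for the mitochondrial genome and 0.40 for nuclear respiratory subunits to -0.30 for glycerol genes.

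Several called genes lie outside these themes. The mating genes *MFA2*, for a-factor, and *STE2*, for the alpha-factor receptor, were higher, with *MFA2* at 3061 and 2817 RPKM in *azf1Δ*, against 1808 and 1663 RPKM in WT. Of 6 genes specific to a cells, 2 were called higher, against 0.942% of all genes, and in 5 both *azf1Δ* libraries were above both WT libraries, against 30.7%. The small heat shock protein gene *HSP26* was at 12.6 and 11.8 RPKM in *azf1Δ*, against 6.23 and 7.11 RPKM in WT. *UGA3*, the activator of genes for GABA use, rose by 0.94. *RPI1*, a regulator tied to the Ras pathway and the cell wall, rose by 0.65. The further rises, *YPL229W*, *PHM6*, *YER084W*, *YJR149W*, *IRC13*, *SPO24*, *YDR262W*, *YBR201C-A* and *YPR172W*, lay between 0.47 and 0.97.

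*FAA1*, which encodes the main long-chain acyl-CoA synthetase, had the largest fall after *AZF1* among genes with a RefSeq entry. It was at 6.15 and 3.84 RPKM in *azf1Δ*, against 15.6 and 27.1 RPKM in WT, a change of -1.88 ± 0.29 (SE, limma, adjusted p = 0.0369). In the plasmid strains *FAA1* was at 7.67 and 5.82 RPKM in *AZF1* MoBY and 5.78 and 4.89 RPKM in MoBY control, so the WT libraries stood above all 6 others. *FAA4*, the other abundant synthetase gene, was at 484.4 and 481.0 RPKM in *azf1Δ*, against 556.4 and 519.1 RPKM in WT, and was not called.

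*IMD3*, inosine monophosphate dehydrogenase of GTP synthesis, was at 106.9 and 105.4 RPKM in *azf1Δ*, against 184.8 and 194.0 RPKM in WT, a change of -0.83 ± 0.07 (SE, limma, adjusted p = 0.0131). *IMD3* was below WT in the plasmid strains too, at 99.7 and 99.0 RPKM in *AZF1* MoBY and 113.0 and 117.8 RPKM in MoBY control. Its close copy *IMD4* had a change of -0.27 and was not called, and reads may be split between the copies. *NSR1*, a nucleolar protein of ribosome synthesis, and *TMA19*, a ribosome-associated protein, fell by 0.66 and 0.51. Neither of their wider groups had a call by limma. Cytosolic ribosomal protein genes had a median of 0.01 over 124 (31 at an unadjusted p under 0.05), and 53 ribosome biogenesis genes one of 0.07 (3 at an unadjusted p under 0.05). *SCS3*, an endoplasmic reticulum protein of lipid droplet formation, *IZH3*, a membrane protein of zinc homeostasis, and *OYE2*, an NADPH dehydrogenase, fell by 0.64, 0.51 and 0.47. *CLN3*, the G1 cyclin gene, was at 26.7 and 28.4 RPKM in *azf1Δ*, against 33.1 and 28.8 RPKM in WT, and was not called (limma, adjusted p = 0.484).

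The letters AAAAGAAA, the A-rich core bound by Azf1, were searched on both strands in the 500 bases before the start codon of each gene. The sequences are those of strain S288C, RefSeq assembly R64, which is not the genome of the strains sequenced, and the window may reach into the next gene. The letters occurred in 13 of the 15 called falls other than *AZF1* (86.7%). There were 2 or more matches in 11 of the falls, against 8.05% of tested genes with a promoter. Overlapping matches were counted separately, and in *TAT1* and *SCS3* the 2 matches share bases. The letters occurred in 11 of 51 nuclear genes called higher (21.6%). Among 5466 tested genes with a promoter the share was 31.5%, or 33.3% of those at 20 RPKM or more. Among 845 genes whose *azf1Δ* libraries both lay below WT the share was 38.3%. The same letters in reverse order, AAAGAAAA, a comparison chosen after the counts were seen, occurred in 60.0% of the 15 falls and 30.4% of tested genes, while the median share of A and T was 62.8% in the falls and 63.4% in tested genes. A match describes the sequence and is not a site.

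Stretches of 30 bases around 1 match each are shown for *IMD3*, *GPP2*, *BAP2* and *OYE2*, falls from 4 different chromosomes, read 5′ to 3′ on the strand of the gene with the match in capitals, TTTCTTTT being the same letters on the other strand:
*IMD3*, chrXII:1002170-1002199, plus strand, 368 bases before the start codon: agccgcacacgTTTCTTTTtccgaaaaatg
*GPP2*, chrV:280858-280887, minus strand, 186 bases before: aaataagttcgTTTCTTTTgatgttgtcat
*BAP2*, chrII:376158-376187, minus strand, 478 bases before: ggggtgccgcaAAAAGAAAagccctttttt
*OYE2*, chrVIII:462271-462300, plus strand, 212 bases before: cgagcaccgcgTTTCTTTTtgggtacttga

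Other motifs were counted in the same windows. CCAAT, the core of the Hap complex site, lay before 35 of 39 nuclear respiratory subunit genes (89.7%) and 12 of the 13 called ones, against 62.8% of tested genes. Among these 39 genes 24 held it 2 or more times (61.5%, against 26.7%). AGGGG, the core of the Msn2 and Msn4 stress element, lay before 45.1% of the genes called higher, 4 of the 16 called lower and 34.4% of tested genes. CGGANNA, the Rgt1 site, lay before 58.8% of the higher, 56.3% of the lower and 42.4% of tested genes. The carbon source response element of Cat8 and Sip4 lay before 8 of the 51 higher genes (15.7%), 3 of the 16 lower genes (18.8%), 5.13% of the nuclear respiratory subunits and 6.70% of tested genes.

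*AZF1* MoBY and MoBY control share no library with *azf1Δ* or WT, so their contrast gives a second reading of the same genes. Of the 55 rises with an entry, 37 had a negative change in *AZF1* MoBY minus MoBY control (67.3%, against 49.6% of all genes), with a median of -0.20. Of the 15 falls other than *AZF1*, 12 had a positive change (against 50.4% of all genes), with a median of 0.12. By limma's test 10 of the rises were called lower in *AZF1* MoBY (background 6.17%) and 4 higher (background 10.2%). Of the falls 4 were called higher, *AZF1* itself included, and none lower.

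Among the rises *BNA1* had the most negative change, -1.42, at 2.43 and 2.41 RPKM in *AZF1* MoBY, against 6.50 and 10.2 RPKM in MoBY control. *VRG4* was at 152.2 and 173.6 RPKM in *AZF1* MoBY, against 110.7 and 92.4 RPKM in MoBY control, and *BAP2* at 699.4 and 739.3 RPKM, against 418.8 and 380.0 RPKM. *HAP4* was at 23.1 and 20.3 RPKM in *AZF1* MoBY, against 31.8 and 26.2 RPKM in MoBY control, and was not called there (limma, adjusted p = 0.125). *HXT4* and *HSP26* went the same way with loss and with extra copies, as both were higher in *azf1Δ* than in WT and higher in *AZF1* MoBY than in MoBY control. *HXT4* was at 250.7 and 268.7 RPKM in *AZF1* MoBY, against 148.1 and 131.6 RPKM in MoBY control.

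The effect of extra *AZF1* (*AZF1* MoBY minus MoBY control) less that of its loss (*azf1Δ* minus WT), tested in a model of all 8 libraries, was called for 897 of 6105 genes (14.7%). It was called for 46 of the 71 genes, a count that the calls themselves favor because the deletion contrast is part of it. For *BNA1* the difference was -2.32, for *BAP2* 1.32, for *HAP4* -0.90 and for *HXT4* -0.80 (adjusted p from limma 0.0021, 0.00096, 0.0105 and 0.0101, in that order). These genes were all called in the deletion contrast, so their p-values are favored in the same way. Of the 39 nuclear respiratory subunit genes 14 had a called difference, all negative, and the median of the 39 was 0.40 in *azf1Δ* minus WT and -0.20 in *AZF1* MoBY minus MoBY control. Subunits called in the deletion contrast, such as *ATP18*, *COX8* and *SDH2*, are among the 14, so this count is favored too.

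**Figure D3:**
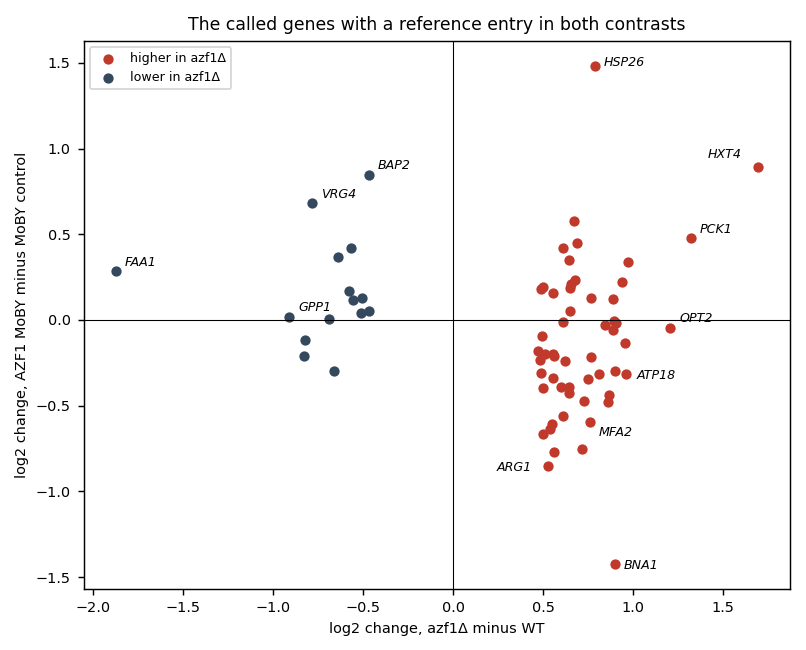
Change in log2(RPKM + 1) for the 70 called genes with a RefSeq entry other than *AZF1*, in *azf1Δ* minus WT (horizontal axis) and *AZF1* MoBY minus MoBY control (vertical axis), red where higher and dark where lower in *azf1Δ*. The gap near 0 on the horizontal axis is set by the call, 37 of the 55 red points lie below 0 on the vertical axis, and *HXT4* and *HSP26* lie above it.

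The 31 ORFs called lower without a RefSeq entry were set aside. Of these, 19 have a RefSeq gene with the next systematic number on the other strand. That neighbor had a median level of 261.4 RPKM, against 18.2 RPKM for all genes with an entry, and 1 of the 19 was called, *HIP1*. *YCR013C*, numbered next to the phosphoglycerate kinase gene *PGK1*, was at 21.3 and 15.5 RPKM in *azf1Δ*, against 81.6 and 129.8 RPKM in WT, while *PGK1* averaged 4046 RPKM over the 4 libraries and changed by -0.21. *YGR190C*, numbered next to *HIP1*, was at 3.84 and 1.33 RPKM in *azf1Δ*, against 14.0 and 19.6 RPKM in WT. The libraries are strand-specific, but the strand setting of the read counting was not stated, so sense and antisense reads cannot be told apart.

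In 27 of the 31 ORFs both WT libraries were above the other 6 libraries, a count favored by the calls, which needed WT to be above *azf1Δ*. The exceptions were *YNL043C*, *YLR120W-A*, *YGL014C-A* and *YLR041W*, and *YLR120W-A* was at 55.7 and 41.1 RPKM in *AZF1* MoBY, against 26.9 and 21.1 RPKM in WT. The median of the 31 was 5.50 and 4.72 RPKM in *azf1Δ* and 17.6 and 21.1 RPKM in WT, beside 5.98 and 5.28 RPKM in *AZF1* MoBY and 5.35 and 5.58 RPKM in MoBY control, a strain with intact *AZF1*. Over all 330 ORFs of this kind that were tested the median change was -0.47. Their summed level was 2038 and 1601 RPKM in *azf1Δ* and 3428 and 4596 RPKM in WT, beside 3536 and 3595 RPKM in *AZF1* MoBY and 2368 and 2546 RPKM in MoBY control, so over the whole set *AZF1* MoBY overlapped WT. In 171 of the 330 both *azf1Δ* libraries were below both WT libraries, against 17.6% of all genes tested. Without systematic names lacking an entry in the fit, but with *kanR* and other identifiers kept, 99 genes were called, 75 higher and 24 lower. Their part in the changes of the annotated genes was not tested.

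Among called genes with an entry, MoBY control lay nearer to WT than to *azf1Δ* for 44 of the 55 rises and for 8 of the 15 falls other than *AZF1*, and nearer to *azf1Δ* for 11 and 7. Nearer to WT does not mean like WT, as any value on the far side of WT from *azf1Δ* is counted there. *SDH2* is such a rise, at 118.6 and 136.2 RPKM in MoBY control, against 278.2 and 286.0 RPKM in WT. There the control was farther from WT than *azf1Δ* was. *LYS9* lay between the strains, at 90.5 and 100.4 RPKM in MoBY control. *FAA1*, *GPP1*, *IMD3* and *TAT1* are among the 7 falls nearer to *azf1Δ*. *HXT4*, *HSP26*, *DAN4* and *PAU21* are among the 11 rises nearer to *azf1Δ*, and for each of them both WT libraries were below every other library of the series. For *FAA1*, *GPP1*, *GPP2*, *IMD3*, *NSR1*, *TAT1*, *TMA19* and *IZH3* both WT libraries were above every other library of the series. For *VRG4*, *FCY2*, *SCS3*, *HIP1*, *PHO90*, *BAP2* and *OYE2* they were not. MoBY control cells also differ from WT by plasmid and G418, and that difference cannot be told apart from others between the strains.

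**Figure D4:**
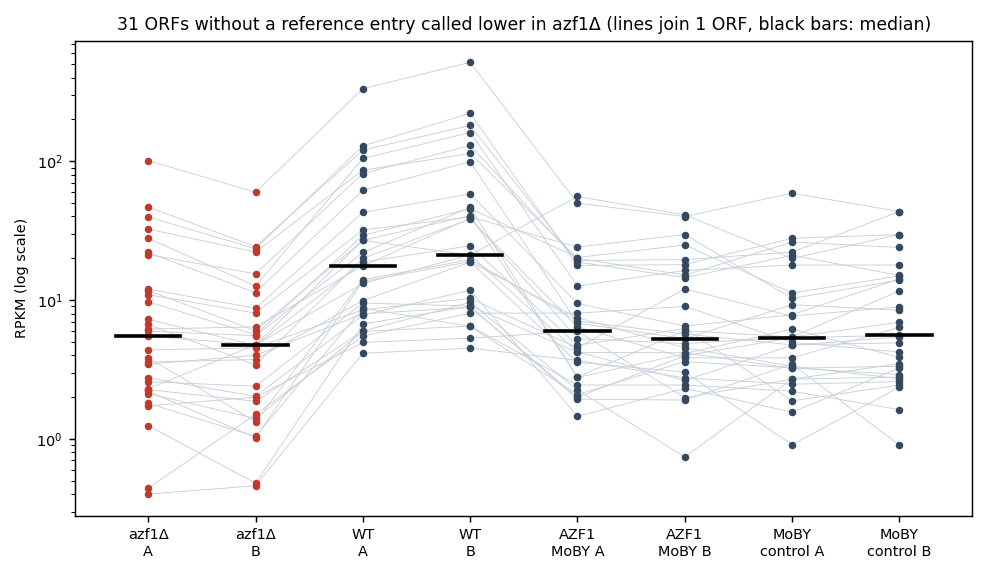
RPKM on a log axis of the 31 ORFs without a RefSeq entry called lower in *azf1Δ*, in each of the 8 libraries, with thin lines joining 1 ORF and black bars for the median. The medians are 17.6 and 21.1 RPKM in WT and between 4.72 and 5.98 RPKM in the other 6 libraries.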

How the data were processed

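RNA-seq of *azf1Δ* and WT cells, 2 libraries each, was compared, with *AZF1* MoBY and MoBY control as a second contrast. Per the methods of the study, RNA was depleted of rRNA, made into strand-specific libraries and read as single ends. The authors used Trimmomatic 0.3.0, Bowtie2 2.2.2 and HTSeq 0.6.0 (versions as in the submitters' processing notes), mapped reads to the Y22-3 genome and converted counts to RPKM. Per sample, not pooled, the authors deposited log2 RPKM, rounded to 2 decimals, for 6328 names in 8 libraries. Strand and multiple-mapping settings of the counting are not given in the sources used here.

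After conversion to RPKM, log2(RPKM + 1) was fitted by limma 3.58.1 under R 4.3.3, with its moderated test and a trend in the variance. Genes entered where 2 or more of the 4 libraries reached 1 RPKM. This scale understates the change of low genes. Depth was inferred from the step between low RPKM values, of which 83.3% to 89.1% fell within 0.15 of a whole read. The floor of 3 reads for *AZF1* is a fixed choice and does not cover all of the counting error. The test was tried on simulated data. RefSeq R64 (strain S288C) gave entries, overlaps and promoters, and 510 systematic names had no entry.

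Named genes were *AZF1*, the marker, cassette and mutated genes, the 15 largest rises and 15 largest falls among called genes with an entry, all called list members, the extremes of lists without calls, and 8 regulators and enzymes. Members, lists and rules were chosen with earlier results of these data known. The list of hypoxic genes is the study's. Uncalled genes such as *CYC7*, *COX5A* and *COX5B*, and called genes outside lists and the largest changes, such as *SVS1*, *RPI1* and *YPR172W*, were named after their values were seen. Alternatives were another pseudocount, filter, scaling and variance model, a replicate block, and leaving out each library. A result that involves a withheld item is not reported here.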

Additional observations from a re-analysis of the deposited data

How the results depend on the processing

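Counts of calls depended on the settings. Against 103 genes called in *azf1Δ* versus WT and 13 nuclear respiratory subunits called higher, limma called 5 and 0 without the filter, 5 and 0 without the variance trend, 66 and 6 after median-ratio rescaling, and 4 and 0 at an adjusted p under 0.01. With all 8 libraries in the fit 118 genes and 3 subunits were called. Filters and pseudocounts otherwise gave 100 to 138 genes and 13 or 14 subunits. Leaving out 1 library gave 0 to 45 genes and 0 subunits, the 0 in fits of 3 libraries and 3, 18, 29 and 45 genes in fits of 7 (without WT B, *azf1Δ* B, WT A and *azf1Δ* A, added after seeing the data), where a lone library is assumed to vary like the others. For the difference of the 2 effects, 897 genes, it gave 370 to 1138.

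With a replicate block 0 genes and 0 subunits were called by limma (803 genes at an unadjusted p under 0.05), and 819 for the difference of the effects. The A minus B differences of *azf1Δ* and WT correlated across genes at -0.11, so no positive pairing by letter was seen. Whether libraries of the same letter shared a collection day is not stated, and the correlation cannot settle it. A crossed replicate block, added after seeing the data, called 41 genes and 2 subunits. No called gene with a RefSeq entry changed direction in any setting that tested it, though leaving out a library, a block or another variance model could not reverse one.

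Precision is limited by 2 libraries a group. In simulated libraries of this comparison (5496 genes), 90.9% of genes raised and 76.5% of genes lowered by 1 on the log2 scale were recovered, but 24.2% and 9.09% of those raised and lowered by 0.5, so changes of that size can be missed. The altered genes were all at 10 RPKM or more in WT, and every gene had the same spread beyond counting error. Recovery among lower or more variable genes was not simulated.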
